A study of Homo sapiens with 6 samples.

Results

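Teneurins, latrophilins and FLRTs are cell surface proteins that bind each other across cell contacts, and all 10 of their human genes were measured here. They are the teneurins TENM1 to TENM4, the latrophilins ADGRL1 to ADGRL3 and the leucine-rich repeat proteins FLRT1 to FLRT3. A member was taken from every probe set whose annotation named 1 of these genes and no other, which gave 1 probe set for each of the 10 genes, among 28869 probe sets for the series. The family was selected on the difference of TENM1 between the 2 lines in these same log2 values, which was already known. The differences between the lines below therefore describe the members and do not test the family.

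Teneurins are large transmembrane proteins whose extracellular part holds a large β-barrel, and latrophilins are adhesion G protein-coupled receptors that bind it from the facing cell. FLRTs bind latrophilins at another site and can also bind UNC5 netrin receptors, so that the same receptor can take part in several contacts. The family is best known from neurons, where it takes part in synapse formation and in the guidance of axons and migrating cells.

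RNA of HEK-BAHD1 cells and of isogenic HEK-CT cells was hybridised to HuGene ST arrays from Affymetrix, with 3 arrays for each line. Both derive from HEK293, an established cell line of human embryonic kidney. HEK-BAHD1 carries 1 copy of BAHD1, a heterochromatin factor, driven by the CMV promoter, and HEK-CT carries, according to the labels, an out-of-frame β-galactosidase insert at the same place, whereas the methods describe an empty vector. Both lines were grown under hygromycin B and are each a pool of transfectants, so p-values and intervals cover only how far cultures of the same pool vary. RNA of HEK-BAHD1 replicate 2 came from a later passage than that of HEK-CT and of HEK-BAHD1 replicate 1, while for HEK-BAHD1 replicate 3 the passage was not given in the sources used here.

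BAHD1 itself was read first, as a check of the labels. It had log2 signals of 6.75, 7.0 and 6.76 on the arrays labelled HEK-BAHD1, against 10.06, 9.81 and 9.93 on those labelled HEK-CT. The gene was thus lower where the label says overexpression, and the groups did not overlap. RT-QPCR in the study has BAHD1 higher in HEK-BAHD1 cells, and its list of chrX genes lower in those cells holds TENM1 under the older symbol ODZ1, both opposite to the labels of these arrays. Below, values given for HEK-BAHD1 and HEK-CT are those of the arrays with these labels. Every direction below follows the deposited labels, and all of them would turn round if the labels were exchanged. The median log2 signal of an array lay between 5.5 and 5.56 for HEK-BAHD1 and between 5.46 and 5.51 for HEK-CT. Among HEK293 markers, the keratin KRT18 lay between 10.52 and 10.70 and the neurofilament protein INA between 9.71 and 9.89 over all 6 arrays. The groups did not overlap in 5 of the 8 HEK293 markers, against 33.6% of all probe sets. On HEK-BAHD1 arrays 2 of them were higher and 3 lower, KRT18 among the lower. Summed over the 8 marker genes, the log2 level was 13.02 to 13.16 on HEK-BAHD1 arrays and 13.17 to 13.20 on HEK-CT arrays, without overlap. Summed over 12 markers of blood, endothelium, liver, fibroblast, muscle, mature neuron and astrocyte it was 8.80 to 8.91 on HEK-BAHD1 arrays and 8.87 to 8.95 on HEK-CT arrays. Of these 20 genes, NEFM, NEFL and RBFOX3 were called higher and VIM and SNAP25 lower on HEK-BAHD1 arrays. RBFOX3 had 3 probe sets and KRT18 and PECAM1 had 2 each, and only the one with the highest mean was read. NEFM, NEFL, RBFOX3 and SNAP25 are neuronal genes, and their part in the results on this family, which is also best known from neurons, was not tested. Detection calls were not used here, so a low signal cannot be told from background.

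The sequence before the annotated starts is shown for the member with the largest difference, TENM1, and for FLRT3, whose 3 HEK-BAHD1 arrays all lay below the HEK-CT arrays. It is shown because the study concerns CpG methylation, which was not analysed here. Each run is the 250 bases before a RefSeq start in GRCh38.p14, from 5′ to 3′ on the strand of the gene, with every CG in capitals. The upstream start of TENM1 follows chrX:125204313-125204562 and an inner start follows chrX:124963818-124964067, both on the minus strand. The start of FLRT3 follows chr20:14337613-14337862 on the minus strand.
TENM1, upstream start: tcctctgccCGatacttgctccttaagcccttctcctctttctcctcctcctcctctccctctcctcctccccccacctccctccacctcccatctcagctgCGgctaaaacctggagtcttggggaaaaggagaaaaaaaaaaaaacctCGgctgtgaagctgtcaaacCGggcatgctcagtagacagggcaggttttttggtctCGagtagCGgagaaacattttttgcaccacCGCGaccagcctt
TENM1, inner start: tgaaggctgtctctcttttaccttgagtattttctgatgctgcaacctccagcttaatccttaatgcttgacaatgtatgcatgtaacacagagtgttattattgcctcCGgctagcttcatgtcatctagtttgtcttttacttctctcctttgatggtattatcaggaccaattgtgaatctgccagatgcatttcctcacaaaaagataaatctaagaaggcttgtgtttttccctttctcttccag
FLRT3: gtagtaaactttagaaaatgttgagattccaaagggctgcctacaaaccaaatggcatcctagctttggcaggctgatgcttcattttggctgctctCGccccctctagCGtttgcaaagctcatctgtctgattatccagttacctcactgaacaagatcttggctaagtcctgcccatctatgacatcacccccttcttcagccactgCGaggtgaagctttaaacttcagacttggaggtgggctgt
The upstream window of TENM1 held 8 CG and the inner one 1, and that of FLRT3 held 3. The median of all 35116 windows of this length in the table was 11, and 56.3%, 93.9% and 77.1% of them held at least as many CG as these windows. In all, 9 members had 23 such windows. TENM2 held 1 and 4 CG, TENM3 held 20 and 35, and FLRT1 held 42 and 23. The highest counts of TENM3 and FLRT1 were reached by 5.8% and 1.38% of all windows. TENM4 had 27, ADGRL3 had 23 and 16, and the 3 windows of FLRT2 had from 13 to 21. ADGRL2 had 8 annotated windows, from 1 to 23 CG. ADGRL1 had no such window among the RefSeq starts used here, so its CG count is not known. Which start was used in these cells was not measured, because a probe set summarises the gene as a whole.

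Across the family, 2 of the 10 members were called between the lines, TENM1 and ADGRL1, both higher on the arrays labelled HEK-BAHD1. Called means a Benjamini-Hochberg adjusted p under 0.05 in limma over 21062 probe sets with a gene name, together with a difference of group medians above 0.2. By that rule 13.2% of all probe sets in the fit passed, 6.79% in the higher and 6.39% in the lower direction, and by the LPE test that the methods name 13.5% did. By limma and by the LPE test 0 members were called lower. At an unadjusted limma p under 0.05, 4 members were higher and 1 lower, beside 3045 higher and 3118 lower of all 21062 probe sets. The median log2 difference of the members was 0.09, from -0.29 in FLRT3 to 1.60 in TENM1, beside a median of 0.00 over all tested probe sets. The groups did not overlap in 5 members, 4 of them higher and 1 lower, against 33.6% of all probe sets, 16.7% higher and 16.9% lower. Because this contrast was used when the family was chosen, nothing is read from these counts.

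**Figure D1:**
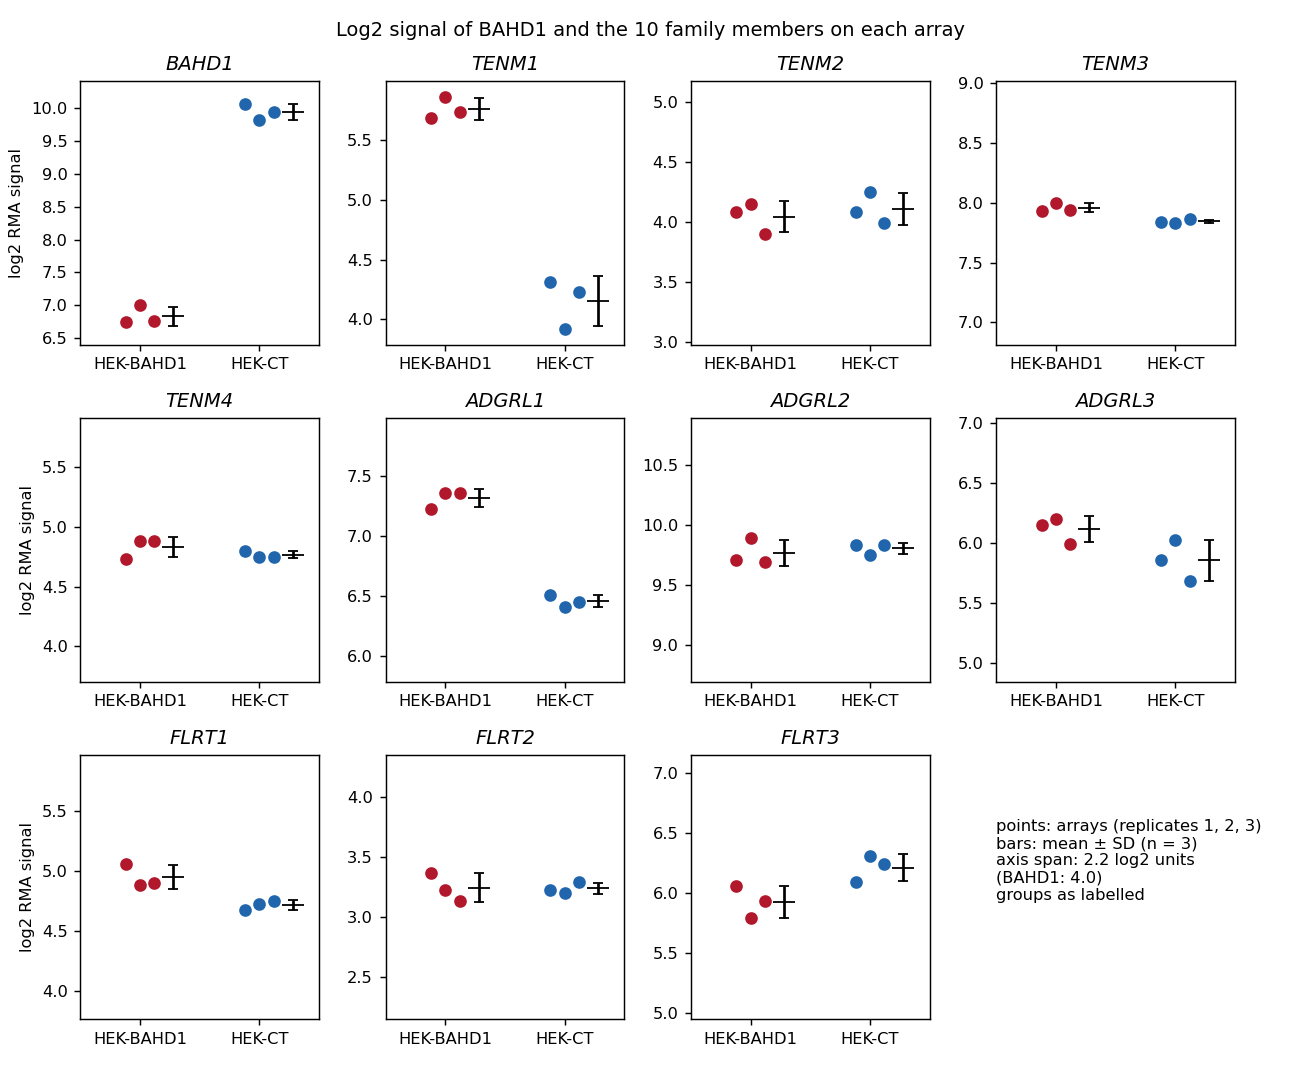
Log2 RMA signal (vertical axis) of BAHD1 and the 10 members on the arrays labelled HEK-BAHD1 (left, red) and HEK-CT (right, blue); points are arrays and bars the mean and SD of 3. Each member's axis spans the same number of log2 units, so that the separation of TENM1 (5.68 to 5.86 against 3.92 to 4.31) and ADGRL1 (7.23 to 7.36 against 6.41 to 6.51) can be set beside the other members.

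TENM1, the X-linked teneurin, had the largest difference of the family. Its log2 signal was 5.68, 5.86 and 5.73 on HEK-BAHD1 replicates 1, 2 and 3, against 4.31, 3.92 and 4.23 on HEK-CT replicates 1, 2 and 3. Every HEK-BAHD1 array lay above every HEK-CT array, and HEK-CT replicate 2 was the lowest of all. The mean was 5.76 ± 0.093 (SD, n = 3) in HEK-BAHD1 and 4.15 ± 0.21 (SD, n = 3) in HEK-CT. The log2 difference was 1.60 (standard error 0.11, 95% interval 1.36 to 1.85), a ratio of measured signals of 3.04 with an interval of 2.56 to 3.61. The HEK-CT signals of TENM1 lay near CD3E of T cells (4.14 to 4.42 over the 6 arrays) and MYOD1 of muscle (3.96 to 4.16). All 12 markers of other cell types ran from 3.05 to 7.15, a range that also holds the HEK-BAHD1 signals of TENM1. They therefore set no background level, and whether TENM1 stood above background in either line is not known. If it did not in HEK-CT, the true fold may be larger than this ratio. Leaving out HEK-CT replicate 2 gave 1.49 and leaving out HEK-CT replicate 1 gave 1.68, the lowest and highest of the 6 fits with 1 array removed, and the difference was 1.56 with the arrays centred on their medians. The gene spans 828.4 kb of chrX in GRCh38.

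TENM2, a teneurin first found as a ligand of latrophilins, had log2 signals of 4.08, 4.15 and 3.90 in HEK-BAHD1, against 4.08, 4.25 and 3.99 in HEK-CT. The groups overlapped almost wholly, with the highest value of each line on replicate 2. They differed by -0.06 on the log2 scale (95% interval -0.27 to 0.15), and it was 0.01 without HEK-BAHD1 replicate 3 or without HEK-CT replicate 2. The upper end of the interval is a 1.11-fold higher signal, but at signals this low it does not bound a change of the RNA.
TENM3, which guides the matching of neurons in the mouse visual system and hippocampus, was at 7.93, 8.0 and 7.94 in HEK-BAHD1 and at 7.84, 7.83 and 7.86 in HEK-CT. Its groups did not overlap, yet they lay close together, with a log2 difference of 0.11 (95% interval -0.01 to 0.23), and the gene was not called.
TENM4, which promotes oligodendrocyte differentiation in mice, was at 4.73, 4.88 and 4.88 in HEK-BAHD1 and at 4.80, 4.75 and 4.75 in HEK-CT. HEK-BAHD1 replicate 1 was the lowest of its 6 arrays and the other HEK-BAHD1 arrays were the highest, for a log2 difference of 0.06 (95% interval -0.08 to 0.21). Among the teneurins, then, 1 of 4 was called. Whether TENM1 differed from the other teneurins in its change was not tested, since TENM1 was known for its difference.

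ADGRL1, a receptor of the spider toxin α-latrotoxin that gave the latrophilins their name, was the other member called. Its log2 signal was 7.23, 7.36 and 7.36 in HEK-BAHD1, against 6.51, 6.41 and 6.45 in HEK-CT. The groups stood well apart, and the spread within each was small. The mean was 7.32 ± 0.075 (SD, n = 3) in HEK-BAHD1 and 6.46 ± 0.050 (SD, n = 3) in HEK-CT. The log2 difference was 0.86 (standard error 0.061, 95% interval 0.72 to 1.0), or 1.82-fold with an interval of 1.64 to 2.0. Leaving out 1 array kept it between 0.84 and 0.90, and centring gave 0.82.

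ADGRL2, a latrophilin that many tissues outside the brain also express, was at 9.71, 9.89 and 9.69 in HEK-BAHD1 and at 9.83, 9.75 and 9.83 in HEK-CT. HEK-BAHD1 replicate 2 was the highest array and the other HEK-BAHD1 arrays were the lowest. Its log2 difference was -0.04 (95% interval -0.20 to 0.12), turning to 0.01 after quantile normalization again.
ADGRL3, a receptor of TENM3 and FLRT3 at synapses whose human variants have been linked to attention deficit, was at 6.15, 6.20 and 5.99 in HEK-BAHD1 and at 5.86, 6.02 and 5.68 in HEK-CT. HEK-BAHD1 replicate 3 lay just below HEK-CT replicate 2, so the groups overlapped by that pair alone. Its log2 difference was 0.26 (95% interval 0.03 to 0.49, for this gene taken alone), and ADGRL3 was not called after adjustment.

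Of the FLRTs, none was called by limma or by the LPE test, while FLRT1 was higher and FLRT3 lower at an unadjusted limma p under 0.05. Over all 21062 tested probe sets, 3045 were higher and 3118 lower at that level. FLRT1 was at 5.06, 4.88 and 4.90 in HEK-BAHD1, against 4.67, 4.72 and 4.75 in HEK-CT. Every HEK-BAHD1 array was above every HEK-CT array, HEK-BAHD1 replicate 1 the most. The log2 difference was 0.23 (95% interval 0.08 to 0.39), and the difference of medians, 0.18, was under the threshold.
FLRT2, a ligand of UNC5D in the mouse cortex, was at 3.37, 3.23 and 3.13 in HEK-BAHD1 and at 3.23, 3.20 and 3.29 in HEK-CT. The HEK-CT values lay inside the range of the HEK-BAHD1 values. Its log2 difference was 0.00 (95% interval -0.16 to 0.17), with no direction that held across scalings (-0.04 with the arrays centred on their medians).
FLRT3, a ligand of ADGRL3 and UNC5B, ran the other way. Its log2 signal was 6.06, 5.79 and 5.93 in HEK-BAHD1, against 6.09, 6.31 and 6.24 in HEK-CT. All HEK-BAHD1 arrays lay below the HEK-CT arrays, although HEK-BAHD1 replicate 1 and HEK-CT replicate 1 nearly met. The log2 difference was -0.29 (95% interval -0.49 to -0.08), or 0.82-fold. FLRT3 was not called over all named probe sets, but it was called lower when the dimmest 30% were left out (limma adjusted p = 0.0429).

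**Figure D2:**
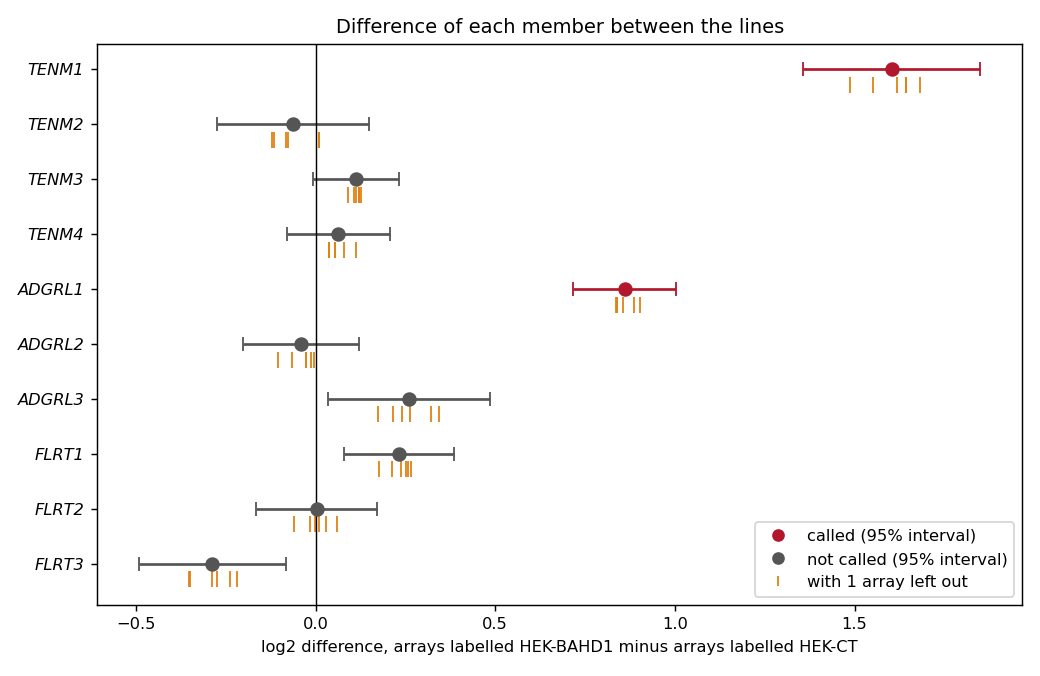
Log2 difference (horizontal axis, arrays labelled HEK-BAHD1 minus arrays labelled HEK-CT) of each member, with the 95% interval of the limma fit on 3 arrays per line; orange ticks give the value with 1 array left out. TENM1 at 1.60 and ADGRL1 at 0.86 stand to the right of the other members, which lie between -0.29 and 0.26.

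The members lie on 8 chromosomes, so genes next to each member were read to see whether the difference was shared by the neighbourhood. On each side, the nearest gene with a probe set of its own was taken. Of these 20 neighbours, 1 was called higher by limma and 19 were not called, beside 13.2% called and 6.79% called higher among all probe sets, so the count is no result about these neighbourhoods. SH2D1A, a signalling adaptor of lymphocytes that ends 2.7 kb from TENM1, was at 3.94, 3.91 and 3.78 in HEK-BAHD1 and at 3.77, 3.97 and 3.87 in HEK-CT, a log2 difference of 0.01. DCAF12L2, on the other side of TENM1 at 959.2 kb, had 0.14. Neither neighbour of TENM1 was called, but SH2D1A was on all 6 arrays no higher than the ranges of CD3E (4.14 to 4.42) and MYOD1 (3.96 to 4.16), where a shared change might not be seen, and DCAF12L2 is far away. Beside ADGRL1, the histone chaperone gene ASF1B at 11.2 kb and the adhesion receptor gene ADGRE5 at 175.3 kb had log2 differences of -0.05 and 0.06, and neither was called.
The neighbour called higher was WWC1, 27.5 kb from TENM2, which encodes KIBRA, a regulator of the Hippo pathway. It was at 7.23, 7.42 and 7.27 in HEK-BAHD1, against 6.80, 6.96 and 6.82 in HEK-CT, with groups that did not overlap and a log2 difference of 0.45. TENM2 itself was at -0.06, but its signals of 3.90 to 4.25 over the 6 arrays were low, and a shared change might not be seen there. ADGRL4, the endothelial relative of the latrophilins and the neighbour of ADGRL2 at 2299.4 kb, had a log2 difference of -0.05.
FLRT1 and FLRT3 each lie within a gene of the opposite strand, MACROD1 and MACROD2, which encode enzymes that remove ADP-ribose. MACROD1 was at 7.10, 7.12 and 6.87 in HEK-BAHD1, against 6.80, 6.81 and 6.80 in HEK-CT, and its log2 difference of 0.23 equalled that of FLRT1 after rounding. Neither was called. Whether signal of one of this pair enters the other's probe set was not tested. MACROD2 was at 4.99, 4.94 and 4.94 in HEK-BAHD1 and at 4.96, 5.06 and 4.91 in HEK-CT, a log2 difference of -0.02 beside -0.29 in FLRT3. TENM3-AS1, a noncoding RNA gene inside TENM3 that was picked after its values were seen, was at 6.11, 6.21 and 6.11 in HEK-BAHD1 and at 5.91, 5.89 and 6.03 in HEK-CT. Its groups did not overlap, and it was not called, with a log2 difference of 0.20.

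**Figure D3:**
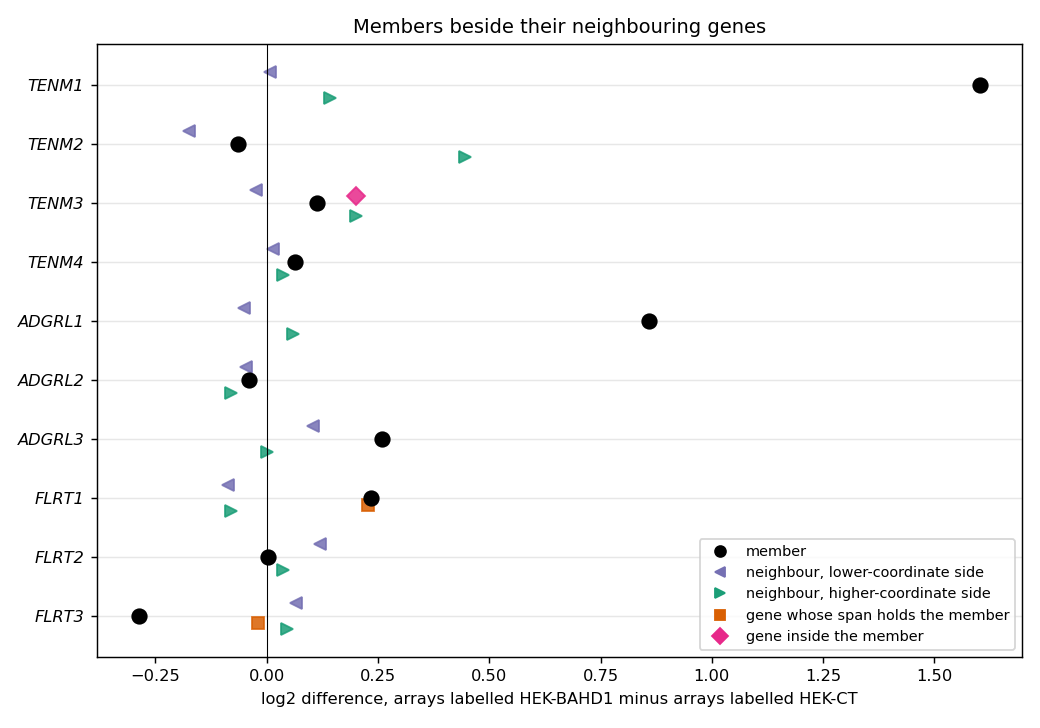
Log2 difference (horizontal axis, arrays labelled HEK-BAHD1 minus arrays labelled HEK-CT, n = 3 each) of each member (black) and of the genes next to it, holding it or inside it (coloured markers). TENM1 at 1.60 and ADGRL1 at 0.86 lie apart from their neighbours, which are between -0.05 and 0.14.

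Proteins that bind the family were followed in a list of 18 genes, of which 15 had a probe set of their own and 3 were not analysed here. Of the 15, 2 were called higher, 1 lower and 12 neither, with a median log2 difference of 0.12 beside 0.00 over all tested probe sets. UNC5B, a netrin receptor that binds FLRT3, was at 6.82, 6.76 and 6.88 in HEK-BAHD1, against 6.40, 6.55 and 6.53 in HEK-CT. Its groups did not overlap and its log2 difference was 0.33. The call was lost with the LPE test (adjusted p = 0.0849) and without HEK-BAHD1 replicate 1, HEK-BAHD1 replicate 3 or HEK-CT replicate 1 (limma adjusted p from 0.0512 to 0.0566). The other UNC5 receptors were not called, with log2 differences of 0.12 in UNC5A, 0.25 in UNC5C and 0.10 in UNC5D.
NRXN3, a neurexin of the presynaptic membrane, was at 6.40, 6.44 and 6.37 in HEK-BAHD1, against 6.05, 6.16 and 6.09 in HEK-CT. The groups stood apart with a log2 difference of 0.30, and the call was lost with the LPE test (adjusted p = 0.0959) and without HEK-CT replicate 3 (limma adjusted p = 0.0531). MBD1, a methyl-CpG-binding protein that binds the intracellular part of TENM1, was at 9.16, 9.12 and 9.13 in HEK-BAHD1, against 9.48, 9.38 and 9.49 in HEK-CT. It was called lower with a log2 difference of -0.31, a call lost without HEK-CT replicate 3 (limma adjusted p = 0.0504). The guidance receptor ROBO1 and the growth factor receptor FGFR1, which bind FLRTs, were at -0.01 and -0.02. The postsynaptic scaffolds SHANK1, SHANK2 and SHANK3, which bind latrophilins, were at 0.11, 0.24 and 0.18, none called.

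Other synaptic adhesion genes were read as a list of 39, with 38 measured. Of these, 6 were called higher, 1 lower and 31 neither, with a median log2 difference of 0.07. CADM4, a cell adhesion molecule of the immunoglobulin family, was at 7.85, 7.96 and 7.97 in HEK-BAHD1, against 7.21, 6.91 and 7.23 in HEK-CT, a log2 difference of 0.81 with groups that did not overlap. The receptor phosphatases PTPRF and PTPRS were called higher at 0.69 and 0.41. The leucine-rich repeat proteins LINGO1 and LRFN1 were at 0.48 and 0.43, both called.
CLSTN3, a calsyntenin, was at 0.33, a call lost with the LPE test (adjusted p = 0.0733), with all probe sets tested (limma adjusted p = 0.0592), and on leaving out any 1 array other than HEK-CT replicate 3 (limma adjusted p from 0.0658 to 0.105). NLGN1, a neuroligin that binds neurexins from the postsynaptic side, was called lower. It was at 5.73, 5.89 and 5.74 in HEK-BAHD1, against 6.15, 6.38 and 6.17 in HEK-CT, a log2 difference of -0.45 with no overlap of the groups. NLGN2 and NLGN3 were at 0.20 and 0.01 and were not called. In each list most measured genes were not called, and the share called, 3 of 15 and 7 of 38, stands beside 13.2% of all tested probe sets.

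**Figure D4:**
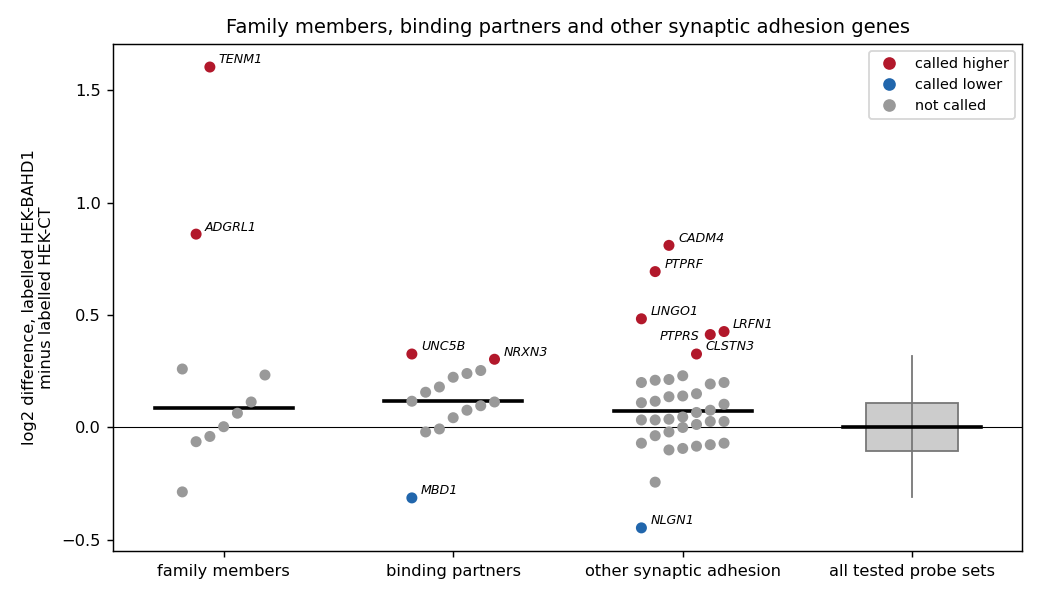
Log2 difference (vertical axis, arrays labelled HEK-BAHD1 minus arrays labelled HEK-CT, n = 3 each) of the members, the binding partners and the other synaptic adhesion genes, with called genes named and coloured and black lines at the medians (0.09, 0.12 and 0.07). The box at the right gives the quartiles of all tested probe sets, from -0.10 to 0.11, and its line the 5th to 95th percentile, from -0.31 to 0.32.

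The genes whose profile over the 6 arrays was nearest to that of TENM1 were CCND2, CDH3 and GPM6B, by the mean absolute distance between log2 profiles, each centred on its own mean. Their distances were 0.099, 0.102 and 0.103 on the log2 scale among 18376 other genes. CCND2, a D-type cyclin, was at 10.42, 10.40 and 10.35 in HEK-BAHD1, against 9.11, 8.86 and 8.96 in HEK-CT, with the lowest value on HEK-CT replicate 2 as for TENM1. CDH3, a cadherin of epithelial junctions, and GPM6B, a membrane glycoprotein of neural cells, had log2 differences of 1.42 each. Like TENM1, GPM6B is in the study's list of chrX genes lower in HEK-BAHD1 cells, opposite to the labels of these arrays. With 2 lines and 3 arrays each, such a profile mostly carries the difference between the lines.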

How the data were processed

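Total RNA of 3 HEK-BAHD1 and 3 HEK-CT cultures was hybridised to Affymetrix HuGene ST arrays. The deposited signals are log2 values that the authors computed by RMA (background correction, normalization across arrays, 1 summary per probe set), whose version was not given in the sources used here. This procedure pulls arrays to a common distribution, so a shift shared by most genes would be lost.

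Of 28869 probe sets, 19310 named 1 gene, 1752 several and 7807 none in the platform annotation. Symbols were brought up to date by gene identifier with RefSeq on GRCh38, which matched 19279 of the 19310. From the deposited values, the 21062 named probe sets were fitted by line alone with limma 3.58.1 (R 4.3.3), and the replicate block was an alternative. Where a gene of a list had several probe sets, the one with the highest mean stood for it. No filter on low signal was set, and all 10 members were tested. The LPE test was written anew from its description, using 100 bins of intensity and a 10 degree of freedom spline. Both tests were run on simulated arrays with independent noise for each probe set and no shift shared by an array. That check does not cover such shifts, and its counts are not given here. The deposited series has another number than the paper gives for its arrays and was taken as the same experiment because lines and replicates match.

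The members and lists were chosen with earlier results of these data known. Named genes were BAHD1, the members, the called genes of each list (up to 6), the UNC5 receptors, the neighbours and the nearest profiles to TENM1. ROBO1, FGFR1, CLSTN3, SHANK1 to SHANK3, NLGN2 and NLGN3 were named after their values were seen. Start windows came from RefSeq. Alternatives were another test, scaling, filter, variance model or threshold, the block and leaving out each array. The number of arrays limits the precision.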

Additional observations from a re-analysis of the deposited data

How the results depend on the processing

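TENM1 and ADGRL1 were the members called higher in the main fit, and 2 members were called higher under each of the 15 alternatives. The family was selected on the difference of TENM1 in these same values, so the calls of TENM1 under the alternatives are no support. Under the filter on dim probe sets, its mean of 4.955 also passed the limit only through the HEK-BAHD1 arrays. The count of members called lower was 0 throughout, except 1 (FLRT3) without the dimmest 30% of probe sets, a filter on a mean log2 signal of 4.93 that also left out TENM2, TENM4, FLRT1 and FLRT2. Fewer probe sets are adjusted over there, and the standard error of FLRT3 was 0.0847, against 0.0879 in the main fit. The sign turned in members that were not called: ADGRL2 was at 0.0067 after quantile normalization again, and FLRT2 at -0.037 after centring. With 1 array left out, TENM2 ranged from -0.12 to 0.0083 and FLRT2 from -0.06 to 0.06. The partner genes called higher numbered 0 with the LPE test and from 1 to 2 with 1 array left out, where those called lower numbered from 0 to 1 and the other synaptic adhesion genes called lower from 1 to 2. Over all tested probe sets, leaving out 1 array gave from 806 to 938 higher and from 581 to 937 lower, against 1430 and 1345 with all arrays. Fewer arrays were fitted there. Centring the arrays on their medians gave 1052 higher and 1823 lower (36.6% of calls higher, beside 51.5% without centring) and moved the median of all differences to -0.037. With the replicate number as a block, 962 were higher and 829 lower, and the member counts stayed at 2 and 0. Deviations of same-numbered arrays correlated at -0.077, 0.074 and -0.038, so the numbers were not taken to pair the samples. The causes of these moves were not tested.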
